A study of Mus musculus with 30 samples.

Results

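The transcripts described here are those of 9 genes of the myelin sheath and the oligodendrocyte lineage, measured in RNA of brain microglia: Mbp, Mog, Mag, Mobp, Cnp, Cldn11, Mal, Olig1 and Pdgfra. They were chosen by gene symbol, and all 9 of 9 had a row in the expression table. Cnp had 2 rows, NM_001146318 and NM_009923, so that 10 of 14225 transcripts (of 13483 gene symbols) are described. The study asked how maternal immune activation (MIA), and later depletion and repopulation of microglia, changed the microglial transcriptome of the offspring.

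Microglia were taken with CD11B magnetic beads from whole brains of C57BL/6J mice in 30 libraries, 3 for each of 10 groups. Dams had received saline (Saline) or the viral RNA mimic poly(I:C) (MIA) in early gestation, and offspring of both were studied at embryonic day E17 and at postnatal days P7, P20 and P60. At P60 there were 4 groups. Saline + CTRL and MIA + CTRL offspring ate control chow, whereas the MG-REP offspring of either kind of dam (Saline + MG-REP, MIA + MG-REP) had eaten chow with the CSF1R inhibitor PLX5622 after weaning, which depletes microglia, and then had time for microglia to return. No P20, P7 or E17 animal had received the inhibitor. The number of animals behind a library fell with age: a whole litter was pooled for each E17 library, 3 brains for each P7 library, and single brains were used later, so that age and the number of animals in a library cannot be told apart. The labels give neither sex nor litter nor sequencing batch, and p-values measure the spread between these libraries.

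Myelin is the lipid-rich membrane that oligodendrocytes wrap around axons, and in the mouse brain most of it is laid down in the first weeks after birth. Progenitors that carry the receptor PDGFRA divide and migrate, the transcription factor OLIG1 acts along the lineage, and cells that differentiate switch on the genes of the sheath: MBP and MOBP in compact myelin, the membrane protein MAL, CLDN11, which forms the tight junctions of the sheath, CNP, an enzyme of its cytoplasmic channels, MAG at the inner face towards the axon, and MOG on the outermost lamella. Microglia are not known as makers of myelin, and they take up myelin and its debris. Which cells held the RNA measured here was not determined: in a bulk library, fewer cells of a type and less RNA per cell cannot be told apart.

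The label of the libraries was checked against 6 microglial markers (C1qa, Csf1r, Cx3cr1, Fcrls, P2ry12 and Tmem119), all with a row. Their summed level was 12177 to 36590.2 TPM (a transcript's level per length, scaled to a fixed total), whereas the 10 myelin and lineage rows together had 101 to 6017 TPM, or 0.0101% to 0.602% of the TPM total that the unit is scaled to. Whole reads recovered from the steps between low values gave an estimated 8020000 to 12850000 reads per library on the kept transcripts with a known length. Other reads are not counted, so that this is not the full depth. In the median over libraries, 1 read of a transcript of 1 kb was worth 0.258 TPM. Libraries differed in markers of other brain cells. At E17, MIA library 1 held 1157 TPM of 5 neuronal genes, against 154 to 321 in the other 5 libraries, and 12177 TPM of microglial markers, the lowest of the 30. At P7, MIA library 3 held 618 TPM of 7 astrocyte genes, against 236 to 383 in the others. By Xist and Y-linked transcripts, all 6 P20 libraries and all 6 MG-REP libraries were of female type, and in each of the P60 CTRL groups library 1 was of female and libraries 2 and 3 of male type. Of the 6 pooled P7 libraries, 5 held 125 to 285 TPM of Y-linked transcripts, and P7 MIA library 2 was of female type.

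The promoters of the genes were read from RefSeq (GRCm38.p6, 250 bases before to 50 bases after a start site). Of the 9 genes, 7 had 9 such windows. The transcription factors of the SOX family act in oligodendrocytes, and the hexamer ACAAAG (searched on both strands, with no overlap to the other motif) is a core of sites they bind. It was found in 4 of the 9 windows and in 3 of the 7 genes, Mag, Mobp and Cnp, against 18.7% of 32851 promoters of the same length. The matched Mag windows overlap and hold the same site. The E-box CAGCTG was found in 0 of the 9 windows, against 16.3% of all. The windows of 30 bases below show examples of the matches, on the strand of the gene, with 1 match of the hexamer or its reverse complement in capitals in each. Mobp has further matches, some of which stand in lower case in its windows. Of the 7 genes searched, these 3 were the only ones with a match. Olig1 and Mbp had no window and were not searched. The rows called higher at the first age step were of these 3 genes, although the other Cnp row was not called. A link between match and rise was not tested, and a match is a description of the letters only.

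Mag promoter, chr7:30914972-30915001, minus strand: tgacaagggcccCTTTGTgcccccctcccc
Mobp promoter, chr9:120149499-120149528, plus strand: ctttgttcccatCTTTGTtggcctttgttt
Mobp promoter, chr9:120149610-120149639, plus strand: ctttgtgcgggcCTTTGTgtagcttttgtt
Cnp promoter, chr11:100574760-100574789, plus strand: aacttttaaggaACAAAGaggtggcgtggc

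The Mobp window held 6 matches in all, from 243 to 120 bases before the start site. The Mag match lay 126 and 67 bases before 2 of the 3 start sites listed for that gene. The Cnp match lay 167 bases before the start.

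What a row measured differed between the genes. Mog, Cldn11 and Olig1 have 1 curated RefSeq transcript each, which was the row. Mag and Mbp have 8, Mobp and Pdgfra 5 and Mal 2, of which 1 was in the table. The Mbp row, NM_001025245, is 1 of the long transcripts that start upstream. In GENCODE M21 (GRCm38, plus strand) it ran from chr18:82475146 to 82558703 in 4 exons of 4797 bases, and 91.4% of it was the last exon. The 11 Mbp transcripts that start inside that last exon, which include the short forms known from compact myelin, reach to position 82585637 and share 281 bases of it. Long Mbp transcripts, called golli, are known also from neurons and immune cells. The Mbp row is therefore no measure of the exons that only the myelin forms hold. Olig1 lies in 1 exon at chr16:91269769-91271939 and overlaps an antisense transcript, Gm15966, and the libraries kept no strand, so that the 2 cannot be told apart. Both Cnp rows lie at chr11:100574909-100591875 and share most exons, and how reads on shared exons were divided between them is not given in the sources used here.

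Summed over the 10 rows, the level rose with age to P20 and was lower at P60. The sums were 143, 129.8 and 179.6 TPM in the E17 Saline libraries and 347, 593 and 313 TPM at P7. They were 6017, 3465 and 2232 TPM at P20, and 927, 2389 and 577 TPM in P60 Saline + CTRL. In MIA offspring the sums were 291, 101 and 219.98 TPM at E17, 368, 343 and 765 TPM at P7, 3549, 2403 and 2431 TPM at P20, and 1998, 1184 and 775 TPM in P60 MIA + CTRL. The 6 libraries of P20 were all above the 12 of E17 and P7. The mean sum of P20 Saline (3905 ± 1931 TPM, SD, n = 3) was 9.35 times that of P7 Saline (417 ± 153) and 3.01 times that of P60 Saline + CTRL (1298 ± 961), and in MIA offspring the folds were 5.68 and 2.12. Libraries of 1 group differed by as much as 4.14 times (P60 Saline + CTRL).

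**Figure D1:**
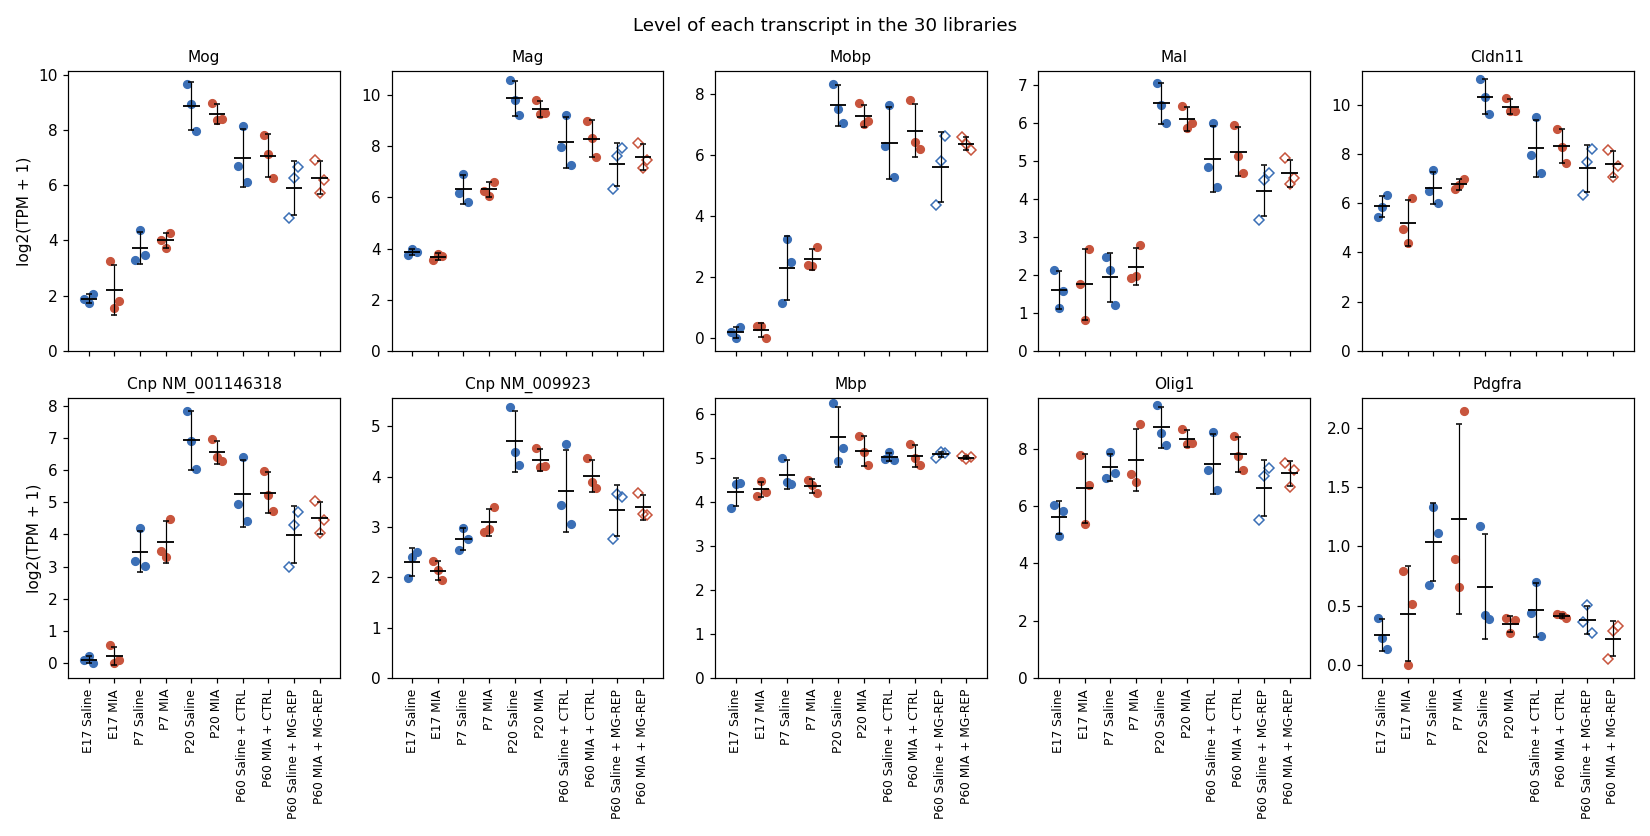
Level of each of the 10 transcripts as log2(TPM + 1) (y axis) in the 10 groups (x axis). Blue points are Saline and red points MIA libraries, open diamonds are MG-REP libraries, and lines and bars give the group mean and SD (n = 3). Mog, Mag, Mobp, Mal, Cldn11 and both Cnp rows are highest at P20, Mbp spans only 13.6 to 74.6 TPM, and Pdgfra stays at or below 3.41 TPM.

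Differences were tested with limma on log2(TPM + 1), in 1 model of all 10 groups, and called at an adjusted p-value under 0.05 over all 14225 transcripts. A log2 fold change on this scale understates the change of rows near 0 TPM. The first step, from E17 to P7, raised 3 of the 10 rows in Saline offspring and 3 in MIA offspring, the same rows in both: Mag, Mobp and Cnp NM_001146318. Over all transcripts, 4.32% were called in Saline (3.09% higher) and 2.39% in MIA (1.59% higher, 0.801% lower). All 10 rows had higher means at P7 in both, with a median log2 fold change of 1.26 and 1.28, against 0.05 and -0.02 over all transcripts. No member was called lower.

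Cnp NM_001146318 went from next to nothing to a clear level at this step. Its TPM were 0.08, 0.17 and 0 in E17 Saline and 0.47, 0 and 0.08 in E17 MIA. At P7 they were 8.03, 17.2 and 7.06 in Saline and 10.2, 8.78 and 21.6 in MIA. All P7 libraries were above all E17 libraries, and the log2 fold change was 3.35 ± 0.51 (SE; limma adjusted p = 0.000323) in Saline and 3.54 ± 0.51 (limma adjusted p = 0.000215) in MIA. The other transcript of the gene, Cnp NM_009923, was present already at E17, with 2.99, 4.31 and 4.70 TPM in Saline and 3.99, 3.41 and 2.85 TPM in MIA. At P7 it had 4.84, 6.88 and 5.74 TPM and 6.47, 6.82 and 9.57 TPM. It was not called (log2 0.45 ± 0.33 and 0.96 ± 0.33, limma adjusted p = 0.495 and 0.158), although its groups did not overlap.

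Mag, a receptor-like protein of the inner sheath, had 12.4, 14.9 and 13.6 TPM in E17 Saline and 10.7, 12.8 and 12.2 TPM in E17 MIA. At P7 it had 71.6, 121 and 56.1 TPM in Saline and 75.8, 65.8 and 97.2 TPM in MIA. The log2 fold changes were 2.45 ± 0.44 (limma adjusted p = 0.00217) and 2.63 ± 0.44 (limma adjusted p = 0.00139). Mobp had 0.14, 0 and 0.3 TPM in E17 Saline and 0.32, 0.31 and 0 TPM in E17 MIA, at most 2.1 reads. At P7 it had 1.23, 8.50 and 4.62 TPM in Saline and 4.27, 4.14 and 6.85 TPM in MIA, and it rose by a log2 of 2.11 ± 0.56 (limma adjusted p = 0.0294) and 2.31 ± 0.56 (limma adjusted p = 0.0252).

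The other rows had higher means at P7 that did not pass. Mog had 2.72, 2.31 and 3.15 TPM in E17 Saline, 8.53, 1.92 and 2.52 TPM in E17 MIA, 8.91, 19.8 and 10 TPM in P7 Saline and 15.2, 12.3 and 18.3 TPM in P7 MIA. Its groups did not overlap, but its adjusted p was 0.0557 in Saline and 0.0883 in MIA (limma). Over all transcripts, 17.1% were higher without overlap in Saline and 6.92% in MIA (10.8% and 6.21% lower), and of the 10 rows 7 and 6 were higher and 0 lower. Cldn11 had 43.0, 56.5 and 79.1 TPM in E17 Saline and 29.7, 20.1 and 74.0 TPM in E17 MIA. It had 89.8, 160.3 and 64.1 TPM in P7 Saline and 93.7, 107 and 126 TPM in P7 MIA, so that its Saline groups overlapped and its MIA groups did not. Mal had 3.35, 1.18 and 2.01 TPM in E17 Saline, 2.41, 0.76 and 5.41 TPM in E17 MIA, 4.53, 3.40 and 1.33 TPM in P7 Saline and 2.76, 2.91 and 5.87 TPM in P7 MIA, with overlap in both. The Saline count was 2 to 3 rows when each library was left out in turn. It was 6 rows without the 5 libraries that were highest in astrocyte or neuron markers at their age. These were E17 MIA libraries 1 and 3, P7 MIA library 3, P20 Saline library 1 and P60 MIA + CTRL library 1. As they include no E17 or P7 Saline library, the Saline count moved through the spread shared by all groups. The MIA count was 1 with only the groups compared in the fit. It was also 1 without those 5 libraries, but E17 MIA is then a single library, assumed to vary like the other groups.

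From P7 to P20 the sheath genes rose steeply. In Saline offspring 8 of the 10 rows were called higher, all except Olig1 and Pdgfra, and in MIA offspring the same 8 were called higher and Pdgfra lower. This was the step at which the whole transcriptome differed most: 36.2% of transcripts were called in Saline (16.1% higher) and 35.6% in MIA (13.1% higher, 22.5% lower). The median log2 fold change of the 10 rows was 3.51 in Saline and 2.97 in MIA, against -0.02 and -0.09 over all transcripts. Under median-ratio scaling, the share of higher calls over all transcripts in MIA went from 36.7% to 49.2%. Without overlap of libraries, 8 rows were higher in Saline, with Olig1 among them but not Mbp, against 22.4% of all transcripts (24.2% lower). In MIA 8 were higher and 1 lower, against 18.9% and 31.4%. Leaving out each library in turn left 7 to 8 calls in Saline and 8 to 9 in MIA. Of the 6 P7 libraries 5 held Y-linked transcripts, whereas the P20 libraries were of female type, so that age and sex cannot be fully told apart here. The female-type P7 library, MIA library 2, had a sum of 343 TPM over the 10 rows, against 2403 to 3549 TPM in P20 MIA. The part of sex was not tested.

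The largest fold changes were those of Mobp and Mog. Mobp reached 323, 178 and 130.5 TPM in P20 Saline and 206, 128 and 137 TPM in P20 MIA, a log2 fold change of 5.32 ± 0.56 (limma adjusted p = 1.12e-07) and 4.69 ± 0.56 (limma adjusted p = 7.08e-07). Mog reached 819, 486 and 246 TPM in P20 Saline and 506, 324 and 339.6 TPM in P20 MIA, a log2 fold change of 5.14 ± 0.54 (limma adjusted p = 1.27e-07) and 4.57 ± 0.54 (limma adjusted p = 6.96e-07). For both genes every P20 library was above every P7 library. Mal, a proteolipid that sorts myelin membrane, was near its E17 level at P7 and then reached 133, 88.4 and 63.5 TPM in P20 Saline and 86.8, 57.2 and 63.8 TPM in P20 MIA. Its log2 fold changes were 4.58 ± 0.48 and 3.89 ± 0.48 (limma adjusted p = 1.06e-07 and 1.11e-06).

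Cldn11 and Mag were the most abundant rows at P20. Cldn11 had 2107, 1282 and 793 TPM in P20 Saline and 1243, 859 and 850.3 TPM in P20 MIA, above all P7 libraries, with log2 fold changes of 3.71 ± 0.54 and 3.15 ± 0.54 (limma adjusted p = 1.21e-05 and 8.11e-05). Mag had 1549, 885 and 602 TPM in P20 Saline and 904, 614 and 625 TPM in P20 MIA, with log2 fold changes of 3.56 ± 0.44 and 3.14 ± 0.44 (limma adjusted p = 1.44e-06 and 7.46e-06). Cnp NM_001146318 had 229, 119 and 64.0 TPM in P20 Saline and 124, 84.0 and 77.3 TPM in P20 MIA, and Cnp NM_009923 had 40.9, 21.3 and 17.8 TPM and 22.8, 17.2 and 17.6 TPM. Both transcripts rose, by a log2 of 3.47 ± 0.51 and 1.94 ± 0.33 in Saline (limma adjusted p = 1.19e-05 and 7.24e-05) and of 2.80 ± 0.51 and 1.24 ± 0.33 in MIA (limma adjusted p = 0.000142 and 0.00496).

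The Mbp row rose least of those called. It had 13.6, 20.2 and 20.4 TPM in E17 Saline, 16.7, 21.3 and 17.9 TPM in E17 MIA, 30.9, 21 and 20.2 TPM in P7 Saline and 21.7, 19.7 and 17.5 TPM in P7 MIA, which overlapped throughout. At P20 it had 74.6, 29.7 and 36.5 TPM in Saline and 44.1, 34.2 and 27.4 TPM in MIA. The log2 fold changes from P7 to P20 were 0.85 ± 0.24 (limma adjusted p = 0.00699) in Saline, where the groups overlapped, and 0.79 ± 0.24 (limma adjusted p = 0.0112) in MIA, where they did not. Of the 3 P20 Saline libraries, library 1 was the highest.

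Olig1 and Pdgfra were not called higher from P7 to P20, although the Saline libraries of Olig1 were higher at P20 without overlap. Olig1 had 64.1, 30.01 and 56.3 TPM in E17 Saline, 217, 40.04 and 105 TPM in E17 MIA, 127, 234 and 142 TPM in P7 Saline and 137, 115 and 459 TPM in P7 MIA. The 2 high MIA libraries are those with high neuronal or astrocyte markers, E17 library 1 and P7 library 3, and the part of those markers in the Olig1 values was not tested. At P20 Olig1 had 741, 375 and 278 TPM in Saline and 412, 285 and 292 TPM in MIA, and the step from P7 was not called (log2 1.39 ± 0.60 and 0.75 ± 0.60, limma adjusted p = 0.0732 and 0.352). Pdgfra had 0.32, 0.17 and 0.1 TPM in E17 Saline, 0.73, 0 and 0.43 TPM in E17 MIA, 0.6, 1.51 and 1.16 TPM in P7 Saline and 0.86, 0.58 and 3.41 TPM in P7 MIA. At P20 it had 1.25, 0.34 and 0.31 TPM in Saline and 0.32, 0.21 and 0.3 TPM in MIA, and it fell by 0.88 ± 0.27 on the log2 scale in MIA (limma adjusted p = 0.0133) and was not called in Saline (log2 -0.38 ± 0.27, limma adjusted p = 0.293). These levels rest on an estimated 0 to 63.4 reads per library, with a median of 7.97. The highest estimates, 63.4, 41.8 and 32.5 reads, were all in P7 libraries. As the authors kept transcripts by their reads in at least 3 libraries, a row kept through P7 libraries favours a difference from P7. P7 MIA library 3, with 3.41 TPM of Pdgfra, is also the one with high astrocyte markers. The part of either in the Pdgfra call was not tested.

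**Figure D2:**
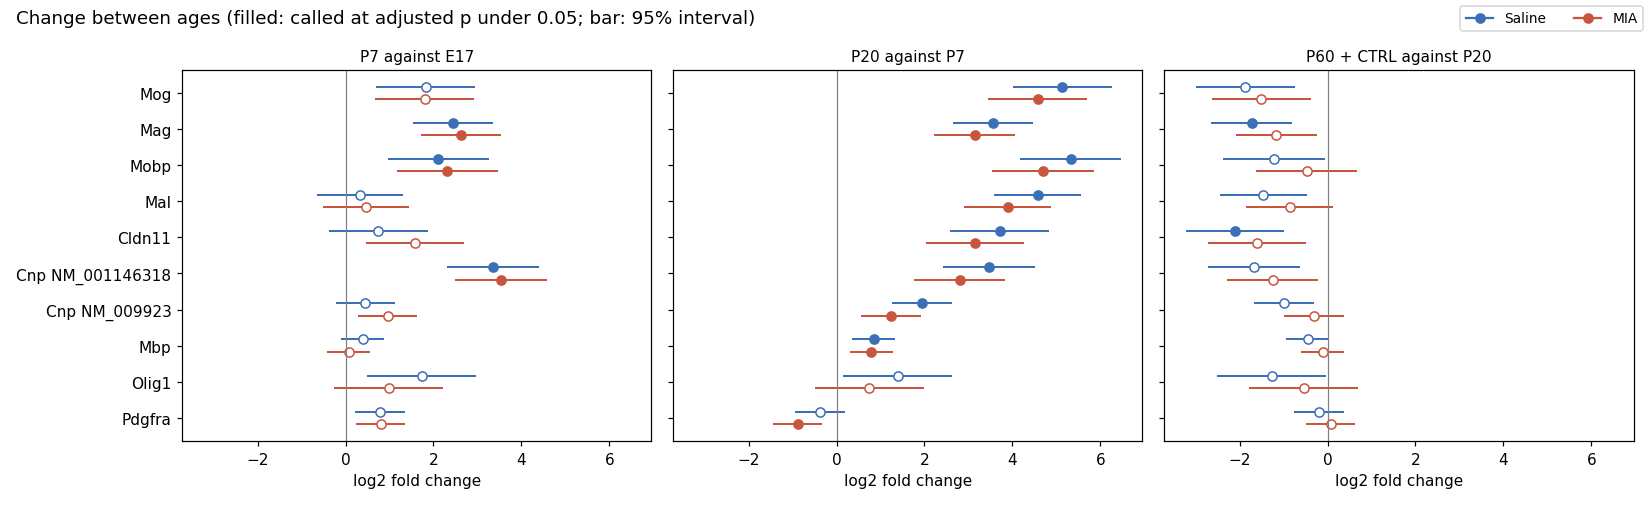
Log2 fold change (x axis) of each transcript (y axis) from E17 to P7, from P7 to P20 and from P20 to P60 + CTRL, in Saline (blue) and MIA offspring (red). Bars are 95% intervals and filled points are called at an adjusted p under 0.05. The middle panel holds the largest values, up to 5.32 for Mobp, and all of the right panel except Pdgfra in MIA lies below 0.

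From P20 to P60 + CTRL the rows were lower again, to a degree that depended on single libraries. In Saline offspring all 10 rows had lower means (median log2 -1.37, against -0.06 over all transcripts), and 2 were called, Mag (log2 -1.72 ± 0.44, limma adjusted p = 0.0317) and Cldn11 (log2 -2.11 ± 0.54, limma adjusted p = 0.0321). Over all transcripts 3.51% were called, 1.02% higher and 2.49% lower, and 29.1% of the calls were higher, against 44.8% under median-ratio scaling. Mag had 248, 597 and 153 TPM and Cldn11 250.5, 720.2 and 147 TPM in P60 Saline + CTRL, all below the P20 Saline libraries. They were 2 of the 10 rows lower without overlap, against 12.7% of all transcripts (6.71% higher). The count was 6 without Saline + CTRL library 2 and 0 without P20 Saline library 1 or 2, Saline + CTRL library 1 or 3, or the 5 libraries highest in astrocyte or neuron markers. It was 0 with only the groups compared in the fit and 4 under quantile normalization. Library 2 held 885 TPM of astrocyte genes, against 473 and 256 in the others of its group.

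In MIA offspring 9 of 10 rows had lower means (median log2 -0.70, against 0.01 over all transcripts) and 0 were called by limma, with 4 at an unadjusted p under 0.05, against 2.6% called over all transcripts (1.03% higher, 1.57% lower). Mag had 510.3, 319 and 189 TPM, Cldn11 516, 314 and 198 TPM and Mog 224, 139 and 76.4 TPM in P60 MIA + CTRL, all below their P20 MIA libraries. With Cnp NM_001146318 they were 4 of 10 rows lower without overlap, against 15.6% of all transcripts, and as large a share was higher. For Mog the log2 fold change was -1.51 ± 0.54 (limma adjusted p = 0.14), and in Saline, where P60 + CTRL had 102, 282 and 68.3 TPM, it was -1.87 ± 0.54 (limma adjusted p = 0.055). Mobp had 77.4, 197 and 37.9 TPM in Saline + CTRL and 221, 84.3 and 71.9 TPM in MIA + CTRL, which overlapped P20 in both (log2 -1.22 ± 0.56 and -0.47 ± 0.56, limma adjusted p = 0.27 and 0.712). Sex and age cannot be fully told apart here, since the P20 libraries were all of female type. The female-type P60 + CTRL libraries had sums of 927 (Saline) and 1998 TPM (MIA) over the 10 rows, and the male-type libraries had 577 to 2389 TPM.

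The remaining P60 + CTRL values were within or below the range of P20, except that Pdgfra was slightly above it in MIA. Cnp NM_001146318 had 30.1, 84.4 and 20.2 TPM in Saline + CTRL and 61.8, 36.2 and 25.4 TPM in MIA + CTRL. Cnp NM_009923 had 9.82, 23.9 and 7.39 TPM and 19.6, 13.9 and 12.6 TPM. Mal had 27.8, 63.7 and 18.8 TPM and 60.6, 33.9 and 24.6 TPM. Library 2 of Saline + CTRL and library 1 of MIA + CTRL were the highest of their groups for each of these rows. Olig1 had 151, 385 and 93.7 TPM and 347, 212 and 150.4 TPM, with the same 2 libraries highest. Mbp, in contrast, had 30.5, 33.9 and 30.1 TPM and 38.5, 30.7 and 27.5 TPM, a far smaller spread. Pdgfra had 0.36, 0.63 and 0.19 TPM and 0.35, 0.34 and 0.32 TPM.

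The proportions between the rows changed with age. Olig1 made up 33.1% ± 11.0 (SD, n = 3) of the summed TPM in E17 Saline, 40.5% ± 4.63 in P7 Saline, 11.9% ± 0.915 in P20 Saline and 16.2% ± 0.0843 in P60 Saline + CTRL, although the P60 sums differed 4.14 times. The TPM of Mog per TPM of Cldn11 was 0.0480 ± 0.0132 in E17 Saline, 0.126 ± 0.0285 at P7, 0.359 ± 0.0430 at P20 and 0.421 ± 0.0386 in P60 Saline + CTRL. The ratio of Mobp to Cldn11 went further up between P20 and P60, from 0.152 ± 0.0127 to 0.280 ± 0.0262 in Saline and from 0.159 ± 0.00872 to 0.354 ± 0.0808 in MIA. In both, all 3 P60 + CTRL libraries were above all 3 P20 libraries. Mal to Cldn11 was 0.0708 ± 0.00854 at P20 and 0.109 ± 0.0198 at P60 in Saline, again without overlap. Over this step Mobp and Mal themselves had lower means, and Cldn11 had the lowest log2 fold change of the rows (-2.11 in Saline and -1.61 in MIA). Other rows also rose relative to Cldn11 in Saline, such as Mag from 0.729 to 0.953 and Olig1 from 0.332 to 0.591. These ratios were chosen after the values were seen and were not tested.

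By TPM, the 2 Cnp rows changed order between E17 and P7. How reads on their shared exons were divided is not known, and at E17 Cnp NM_001146318 had at most 4.6 estimated reads. In E17 Saline, Cnp NM_001146318 had 0.0221 ± 0.0201 (SD, n = 3) of the TPM of Cnp NM_009923, and in P7 Saline 1.80 ± 0.648 times its TPM. The ratio was 4.93 ± 1.15 in P20 Saline, 3.11 ± 0.398 in P60 Saline + CTRL and 1.69 ± 0.525 in P60 Saline + MG-REP. In MIA offspring it was 0.0486 ± 0.0615 at E17, 1.71 ± 0.494 at P7, 4.91 ± 0.530 at P20, 2.59 ± 0.571 in MIA + CTRL and 2.33 ± 0.475 in MIA + MG-REP. In Saline offspring the 3 MG-REP libraries (1.21 to 2.25) were all below the 3 CTRL libraries (2.73 to 3.53), and in MIA offspring the groups overlapped. The MG-REP libraries were of female type, and Saline + CTRL libraries 2 and 3 of male type. This ratio too was chosen after the values were seen and was not tested.

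**Figure D3:**
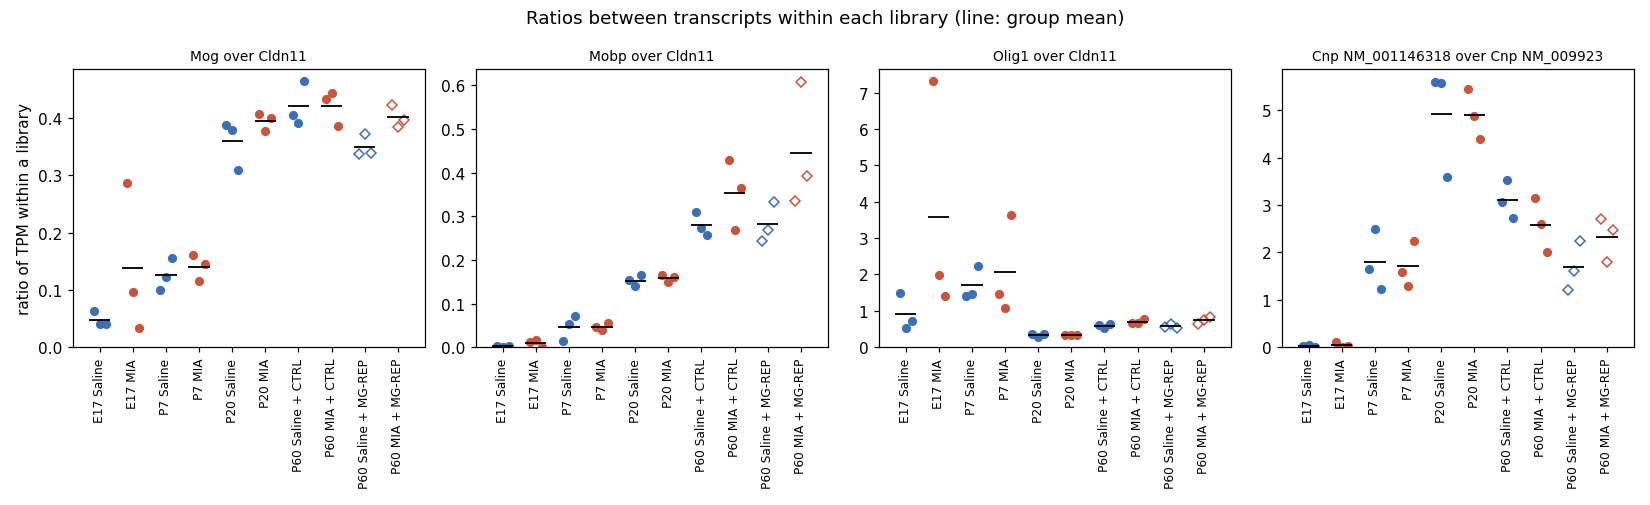
Ratio of the TPM of 2 transcripts within each library (y axis) in the 10 groups (x axis), with the group mean as a line. The panels show Mog, Mobp and Olig1 over Cldn11 and Cnp NM_001146318 over Cnp NM_009923, with Saline in blue, MIA in red and MG-REP as open diamonds. Mobp over Cldn11 rises from 0.152 at P20 to 0.280 at P60 in Saline, and the ratio of the Cnp transcripts peaks at 4.93 in P20 Saline.

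Whether offspring of MIA dams differed from Saline offspring was compared at each age, and no row was called. By limma 0 of 14225 transcripts (0%) were called at E17, P7, P20 and P60 + CTRL, with 585, 335, 457 and 256 transcripts at an unadjusted p under 0.05. Of the 10 rows, 0 passed an unadjusted p under 0.05 at any age. The median log2 fold change of the rows was 0.09 at E17, 0.27 at P7 and 0.12 at P60 + CTRL, with 7, 8 and 9 of the 10 rows higher in MIA. Over all transcripts the medians at these ages were 0.10, 0.03 and 0.03. Under at least 1 other setting, 7, 7 and 10 of the rows changed sign. At P20 all 10 rows were lower in MIA, by 0.27 to 0.42 on the log2 scale (median -0.37, against -0.05 over all transcripts), and every row's groups overlapped. For Cldn11 the 95% interval of the difference at P20 was -1.53 to 0.71 and for Mag -1.33 to 0.50. For Mbp, the row with the least spread, the interval was -0.80 to 0.17. Without P20 Saline library 1, the highest library of 9 of the 10 rows, the log2 fold changes of Mog, Mbp, Mobp, Olig1 and Cnp NM_001146318 turned to 0.14, 0.07, 0.01, 0.01 and 0.09.

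Repopulated microglia were compared with CTRL at P60 within Saline and within MIA offspring. Most rows had lower means after repopulation, but 0 of the 10 were called in either comparison. Over all transcripts 26.7% were called in Saline and 0.555% in MIA, and of the Saline calls 44.3% were higher, against 57.5% under median-ratio scaling. The median of all transcripts in Saline lay at -0.14 on the log2 scale, and at -0.05 under median-ratio scaling. In Saline 9 of the 10 rows had lower means (median log2 -0.82), of which Pdgfra turned to 0.03 under quantile normalization, and 1 had an unadjusted p under 0.05 (limma). The Saline count was 2 without CTRL library 3, 1 without MG-REP library 3 and 1 without the 5 libraries highest in astrocyte or neuron markers. Those 5 include no Saline library of P60, so that this last count moved through the spread shared by all groups. In MIA all 10 were lower (median -0.65, against -0.08 over all transcripts), of which Mbp turned to 0.03 under median-ratio scaling, and 0 had an unadjusted p under 0.05.

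In Saline, Cnp NM_001146318 had the lowest log2 fold change of the 10 rows. It had 6.94, 18.7 and 24.8 TPM in Saline + MG-REP, of which 2 libraries were below the CTRL values of 30.1, 84.4 and 20.2, and the log2 fold change was -1.27 ± 0.51 (limma adjusted p = 0.0669). In MIA + MG-REP it had 31.7, 15.5 and 20.9 TPM (log2 -0.80 ± 0.51, limma adjusted p = 0.963). Mog had 27.0, 76.4 and 99.2 TPM in Saline + MG-REP and 119, 51.8 and 72.0 TPM in MIA + MG-REP, with log2 fold changes of -1.07 ± 0.54 and -0.80 ± 0.54 (limma adjusted p = 0.156 and 0.978). Mag had 80.4, 197 and 241 TPM and 280.1, 139 and 174 TPM (log2 -0.85 ± 0.44 and -0.72 ± 0.44, limma adjusted p = 0.169 and 0.955). Both genes overlapped their CTRL groups.

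Cldn11 had 80.3, 206 and 293 TPM in Saline + MG-REP and 282, 134 and 182 TPM in MIA + MG-REP. Mobp had 19.4, 55.2 and 97.3 TPM and 94.3, 81.7 and 71.2 TPM, and Mal had 9.98, 21.9 and 25.0 TPM and 33.0, 20.2 and 22.6 TPM. In Saline + MG-REP library 1 was the lowest for each of these. Cnp NM_009923 had 5.74, 11.7 and 11.0 TPM and 11.7, 8.61 and 8.42 TPM, and in MIA its MG-REP libraries were all below its CTRL libraries (log2 -0.62 ± 0.33, limma adjusted p = 0.875). In that comparison 2 of the 10 rows, Cnp NM_009923 and Pdgfra, were lower without overlap, against 11% of all transcripts. Olig1 had 44.6, 131 and 158 TPM and 178, 99.8 and 153 TPM. Mbp had 31.2, 33.9 and 33.4 TPM and 31.7, 30.3 and 31.4 TPM, with 95% intervals of the log2 difference of -0.43 to 0.55 and -0.53 to 0.45. Pdgfra had 0.29, 0.42 and 0.21 TPM and 0.04, 0.22 and 0.26 TPM.

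The difference of the MG-REP effect between MIA and Saline offspring was called for 0 of the 10 rows (limma, 0 at an unadjusted p under 0.05), and for 10.5% of all transcripts (4.42% higher, 6.09% lower). Its log2 values ranged from -0.24 to 0.47. The 2 comparisons with CTRL at P60 share no libraries. All 6 MG-REP libraries were of female type and 4 of 6 CTRL libraries of male type. With Xist as a covariate, 0 rows were called in both. The female-type Saline + CTRL library had a sum of 927 TPM over the rows, within the 306 to 983 TPM of Saline + MG-REP, and the female-type MIA + CTRL library had 1998 TPM, above the 582 to 1062 TPM of MIA + MG-REP. The microglial markers were lower in Saline + MG-REP (18104 to 19898 TPM) than in Saline + CTRL (25446 to 36590.2 TPM), without overlap, and their part in the result was not tested.

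**Figure D4:**
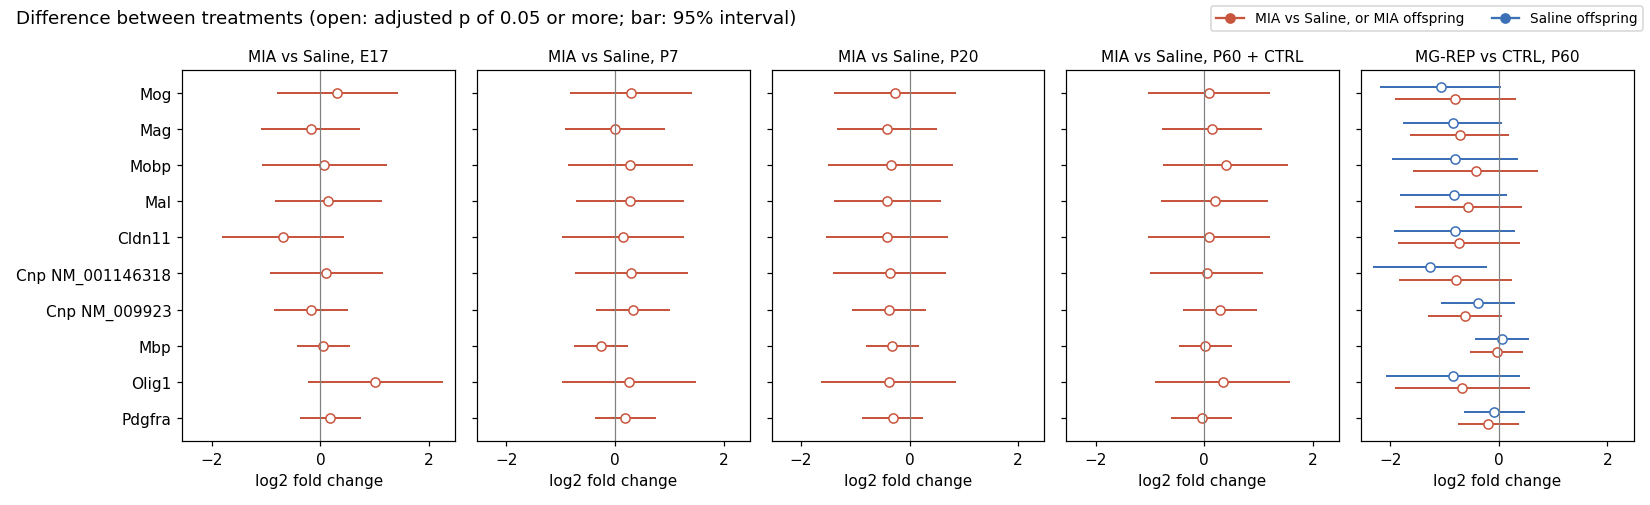
Log2 fold change (x axis) of each transcript (y axis) for MIA against Saline at E17, P7, P20 and P60 + CTRL (red), and for MG-REP against CTRL at P60 in Saline (blue) and MIA offspring (red). Bars are 95% intervals, and all points are open since 0 rows were called. All 10 points lie below 0 at P20 and, with the TPM as deposited, in the MIA offspring of the MG-REP panel, where Mbp turns to 0.03 under median-ratio scaling.

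Between libraries the sheath genes went up and down together. Over the 30 libraries, the 21 pairs among Mog, Mag, Mobp, Cldn11, Mal and both Cnp rows had a Pearson correlation of log2(TPM + 1) of 0.88 to 0.99 (median 0.94), and of 0.56 to 0.95 (median 0.85) for deviations from the group means. Olig1 correlated with these 7 rows at a median of 0.77, and at 0.75 for the deviations. Mbp did so at 0.82 over all libraries but at 0.36 for the deviations, and Pdgfra at 0.00 and 0.44. These values describe 30 libraries of 10 groups that share depth and age, and are given without a test.

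The same deviations were set against markers of other cells. The deviations of the summed 10 rows from the group means correlated at 0.90 with those of 7 astrocyte genes, 0.78 with neuronal (5 of 7 genes with a row), 0.70 with stromal (4 of 5), 0.57 with endothelial (5 of 5) and 0.43 with choroid plexus genes (4 of 5). The correlation was -0.63 with the 6 microglial markers. With genes of phagocytic microglia of white matter, such as Spp1, Gpnmb and Clec7a (6 of 9 with a row), it was -0.80. Across ages the lists parted: the neuronal genes were highest at E17 (median 234 TPM, against 86.3 at P20), whereas the 10 rows had a median of 161 TPM at E17 and 2948 TPM at P20. The astrocyte genes had medians of 176, 289, 423 and 558 TPM at E17, P7, P20 and P60. For the microglial markers, the medians at these ages were 18315, 19747, 32696 and 28140 TPM, so that across ages they too were highest at P20. The phagocytic genes had medians of 999 and 1354 TPM at E17 and P7 and 476 and 529 TPM at P20 and P60. Their part in the levels of the 10 rows was not tested.

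**Figure D5:**
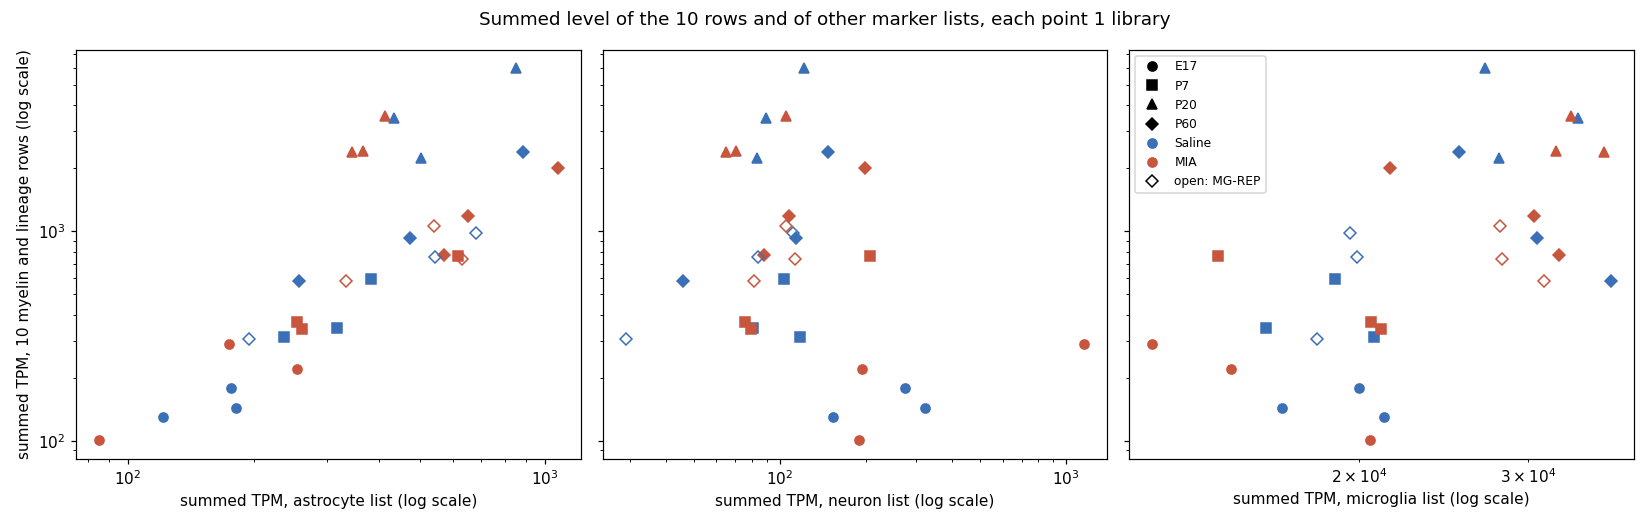
Summed TPM of the 10 myelin and lineage rows (y axis, log scale) against the summed TPM of the astrocyte, neuron and microglia lists (x axes, log scale), each point 1 library, with shapes for age and open symbols for MG-REP. The P20 libraries lie above those of other ages with a like astrocyte level, and P20 Saline library 1, at 6017 TPM, has 853 TPM of astrocyte genes.

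Other genes of the oligodendrocyte lineage were described from lists. In 8 lists of such genes, 79 rows were measured. From E17 to P7, 21 rose and 0 fell in Saline and 14 rose and 0 fell in MIA, against 4.32% and 2.39% of all transcripts called. The largest rises in Saline were those of Ugt8a, which makes the galactolipids of myelin (log2 4.43 ± 0.60, limma adjusted p = 8.14e-05), Gpr17, a receptor of committed precursors (3.997 ± 0.76, limma adjusted p = 0.00319), and Sox10, a factor that directs the lineage (3.48 ± 0.64, limma adjusted p = 0.00237). From P7 to P20, 50 rose and 1 fell in Saline, and 40 rose and 3 fell in MIA, against 36.2% and 35.6%. The largest rises in Saline were those of Opalin, a membrane protein of myelin (6.14 ± 0.47, limma adjusted p = 4.59e-10), Kif5a NM_001039000, a motor protein of axonal transport known mainly from neurons (5.82 ± 0.54, limma adjusted p = 1.47e-08), and Ermn, of the oligodendrocyte cytoskeleton (5.25 ± 0.49, limma adjusted p = 1.68e-08). The median log2 fold change of the 79 rows was 0.61 and then 1.55 in Saline, and 0.44 and then 1.08 in MIA, against medians over all transcripts of 0.05, -0.02, -0.02 and -0.09.

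The calls by list were counted for the first 2 steps. Of 9 rows of progenitor genes, 4 rose from E17 to P7 in Saline and 1 from P7 to P20, and of 9 rows of lineage transcription factors 4 and 3. Of 8 rows of compact myelin and membrane proteins, 3 rose at the first and 7 at the second step, when Cd9 fell, of 9 rows of myelin lipid synthesis 3 and 7, of 12 rows of cytoskeletal genes 2 and 9, of 11 rows of paranode and junction genes 1 and 8, and of 11 rows of receptors 3 and 9. Of 10 rows of enzymes and carriers, 1 and 6 rose. The medians of the progenitor list were 1.66 and -0.05 and those of the compact myelin list 1.23 and 2.85 (log2). By summed TPM, the compact myelin list had means of 1254, 1410, 1579 and 1649 in Saline at E17, P7, P20 and P60 + CTRL. The list of enzymes and carriers had 1169, 1283, 3075 and 3861. These 2 sums were thus high already at E17, and which cells held the RNA of the list rows was not determined. Whether the lists differed from each other was not tested.

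From P20 to P60 + CTRL, 1 of the 79 rows rose and 6 fell in Saline, and 1 rose and 3 fell in MIA, against 3.51% and 2.6% of all transcripts called. Qdpr, an enzyme of pterin recycling, rose in both (log2 1.503 ± 0.34 and 1.79 ± 0.34, limma adjusted p = 0.0152 and 0.00542). Enpp6, a mark of newly formed oligodendrocytes, fell in both (log2 -2.17 ± 0.54 and -2.12 ± 0.54, limma adjusted p = 0.0263 and 0.0349), and so did Gsn, an actin-severing protein (log2 -2.12 ± 0.42 and -1.77 ± 0.42, limma adjusted p = 0.00556 and 0.0229). Between MIA and Saline 0 of the 79 rows were called at any age. After repopulation in Saline 3 rose and 8 fell, against 11.9% of all transcripts higher and 14.9% lower, led by Anln (1.67 ± 0.40, limma adjusted p = 0.00264), a protein of dividing cells and of myelin, and by Tmem100, which fell by 1.58 ± 0.27 (limma adjusted p = 0.000104). In MIA 0 were called. For Tmem100 and Anln the effect differed between MIA and Saline offspring (1.51 ± 0.39 and -2.05 ± 0.56, limma adjusted p = 0.0122 and 0.0192).

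The rows most like the 10 over the 30 libraries were found by correlation with their mean z-score. Fa2h, which hydroxylates the fatty acids of myelin lipids, came first (Pearson r 0.982), with 0.14 TPM in E17 Saline, 12.1 in P7 Saline, 220.4 in P20 Saline and 66.4 in P60 Saline + CTRL as group means. It was followed by 2810468N07Rik, Map6d1, Myrf, the transcription factor that switches on myelin genes, Hhip, Lgi3, Tprn, Erbb3, a receptor for neuregulins, Kndc1 and Ugt8a (r of 0.967 or more). Of these 10, 5 were in the lists of oligodendrocyte genes. Their group means were all highest in P20 Saline and next highest in P20 MIA, an order that the choice by correlation over the same libraries favours. In the clustering that the study made on these samples, 9 of the 10 rows were in the module of juvenile microglia, and Pdgfra was in that of MIA immature microglia.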

How the data were processed

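RNA of CD11B-selected microglia was measured in 30 libraries. From non-stranded, single-end poly(A) libraries, the authors made alignments to mm10 (Rsubread) and transcript counts on the UCSC annotation (featureCounts), kept transcripts with sufficient reads in at least 3 libraries, and tested counts with edgeR. The deposited table gives TPM for 14225 transcripts and the module to which the study assigned each. The formula of the TPM is not given in the sources used here. The TPM of a library summed to 995495 to 998012. Counts were not used here, and 0 columns of per-sample values were left out.

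Differences were tested with limma 3.58.1 (R 4.3.3) on log2(TPM + 1), with a pseudocount of 1, 1 mean per group, moderated with a trend, two-sided, and with Benjamini-Hochberg adjustment over all transcripts (call: adjusted p under 0.05). Same-numbered libraries of P20 Saline and P20 MIA deviated together from their group means (r of 0.238, 0.104 and 0.132 over transcripts). At E17 the values were 0.404, 0.656 and 0.000317. The labels give no pairing, and whether the numbers mark pairs was not tested. The script was tested on simulated data. The number of reads on the kept transcripts was estimated from the spacing of low values, with lengths for 14005 transcripts. Of the values checked, 71.8% to 80.3% per library lay within 0.2 of a whole read, against a median of 36.9% for other steps tried, so no count test was run on them. Sums, ratios and correlations were made in Python 3.11.15. Annotation came from GENCODE M21 and RefSeq tables.

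The genes and lists were chosen with earlier results of these data known. All 9 genes are named, and of the oligodendrocyte lists the 3 largest called rises and falls of a comparison could be named. The rows most alike were the 10 with the highest correlation among those with a mean of at least 1 TPM. Cd9 was named as the only fall of its comparison. Alternatives were a pseudocount of 0.1, a minimum mean of 1 TPM, median-ratio scaling, quantile normalization, a replicate block, only the groups compared, Xist as a covariate for MG-REP, and each library left out. Leaving out, at each age, the library highest in astrocyte and the library highest in neuron genes was added after seeing the data. Some genes are not reported here.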

Additional observations from a re-analysis of the deposited data

How the results depend on the processing

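Of 540 values recomputed with 1 library left out, 498 kept their direction and side of the threshold, 21 lost the call, 9 gained one and 12 changed sign. Of 641 values under other settings the numbers were 585, 22, 17 and 17. These settings include the replicate block, which cannot test a change between ages. The call counts of P20 against P7 ranged from 7 to 8 (Saline) and 8 to 9 (MIA) with 1 library left out. Of the 2 rows called between P20 and P60 + CTRL in Saline, 0 were called with only the groups compared and 0 without the 5 libraries highest in astrocyte or neuron markers, 4 were called under quantile normalization, and the count was 0 to 6 with 1 library left out. The 3 rows of P7 against E17 became 6 (Saline) and 1 (MIA, where E17 is then a single library, assumed to vary like the other groups) without those 5 libraries, 1 (MIA) with only the groups compared, and 2 to 3 with 1 library left out. For MG-REP against CTRL in Saline the count was 1 without those libraries and 0 to 2 with 1 library left out. Those 5 libraries include none of E17 Saline, P7 Saline or the P60 Saline groups. Without them, the Saline counts of P7 against E17 and of MG-REP against CTRL therefore moved through the spread shared by all groups. The cause of the other changes was not tested.

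The labels do not say that replicate numbers pair the libraries of 2 groups. Over 27 same-numbered pairs of libraries of an age the correlation of deviations ran from -0.53 to 0.66, over 0.1 in 12. At P20 the replicate block left 0 rows called between MIA and Saline. Between ages the replicate block cannot test a change, since its blocks lie within ages. The fit then sets 1 library number of an age against 1 of another. Its counts were 0 (P60 + CTRL against P20, Saline), 0 (P7 against E17, Saline) and 1 (P7 against E17, MIA). In this fit 3 log2 fold changes changed sign: Mal from E17 to P7 in Saline (-0.012), Mbp from P20 to P60 + CTRL in MIA (0.11) and Olig1 from P7 to P20 in MIA (-0.17). No conclusion is drawn from these values between ages.

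Other sign changes were of values not called. For MIA against Saline at P20 without those 5 libraries, the log2 fold changes were 0.092 (Cnp NM_001146318), 0.069 (Mbp), 0.0096 (Mobp), 0.14 (Mog) and 0.010 (Olig1), and with 1 library left out they ranged from -0.82 to 0.092, -0.58 to 0.069, -0.64 to 0.0096, -0.72 to 0.14 and -0.69 to 0.010. Without the 5 libraries Mbp was at -0.038 from E17 to P7 in MIA, Pdgfra at 0.061 from P20 to P60 + CTRL in Saline (-0.33 to 0.061 with 1 library left out), and for MG-REP against CTRL in MIA Mobp was at 0.072 (-0.73 to 0.072) and Mbp at 0.094 (-0.14 to 0.094). Mbp in that comparison was at 0.026 under median-ratio scaling and 0.038 under quantile normalization. For MG-REP against CTRL in Saline, Pdgfra was at 0.029 under quantile normalization and 0.0020 with Xist as a covariate (-0.19 to 0.035 with 1 library left out), Mbp at -0.079 with Xist, and Cnp NM_009923 at -0.70 to 0.083 with 1 library left out. Mal from E17 to P7 in MIA ranged from -0.0056 to 0.93 and Mbp from P20 to P60 + CTRL in MIA from -0.27 to 0.059.

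Over all transcripts, the share of calls that were higher moved from 71.5% to 58.2% (P7 against E17, Saline), from 43.7% under quantile normalization to 29.1% as deposited (P60 + CTRL against P20, Saline), from 39.5% to 51.6% (the same in MIA, median-ratio scaling) and from 36.7% to 49.3% (P20 against P7, MIA). In MIA against Saline at E17, P7 and P60, and in the difference of the MG-REP effects, 0 of 10 rows were called under any setting, and 7, 7, 10 and 9 changed sign under at least 1. Pdgfra, with a mean under 1 TPM, has no value under the minimum mean. Depth limits Pdgfra, and Mobp and Cnp NM_001146318 at E17.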
